A study of Homo sapiens with 6 samples.

Results

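The platelet surface glycoprotein receptor genes are ITGA2B, ITGB3, GP1BA, GP1BB, GP9, GP5 and GP6. Their loci were taken as 7 fixed hg19 windows of 25 to 85 kb, and every peak of the deposited lists that overlapped a window was kept. This gave 51 peaks of 239763 in all, 24 of 112610 in the shHMGA1 list and 27 of 127153 in the control list. Open chromatin had been profiled with ATAC-seq, an assay whose Tn5 transposase cuts and tags accessible DNA, in cells labelled DAMI, a human megakaryoblastic leukaemia line. DAMI stocks have been reported to match the erythroleukaemia line HEL, and the identity of these cells was not checked. The labels give 3 samples infected with an shHMGA1 lentivirus, which silences the architectural chromatin protein HMGA1 by short hairpin RNA, and 3 infected with a control lentivirus. The labels describe both groups as leukaemic cells of a myeloproliferative neoplasm or acute myeloid leukaemia. Each group has 1 peak list and no value per sample, so no difference given here has a replicate check, a standard error or a p-value, and read depth is unknown.

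These genes encode the adhesion receptors that mark the megakaryocyte and the platelet. The products of ITGA2B and ITGB3 pair as the integrin αIIbβ3, which binds fibrinogen and links platelets to each other. GP1BA, GP1BB, GP9 and GP5 encode the receptor complex for von Willebrand factor, and GP6 encodes the collagen receptor that signals through the Fc receptor γ chain. In megakaryocytes such genes are known to be driven by GATA1, RUNX1 and ETS factors such as FLI1, and the question put by the design is how silencing HMGA1 alters the accessible sites.

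RefSeq promoter windows on GRCh38.p14 were found for 5 of the 7 genes (ITGA2B, GP1BB, GP9, GP5 and GP6). The 250 bases before the gene start are shown for 4 of them, since promoters are among the sites where the factors named above are known to act. Capitals mark every GATAA, the core bound by GATA factors, and every GGAAG, a core bound by ETS factors, on either strand (TTATC and CTTCC on the other strand). They lie at chr19:55038265-55038514 (minus strand, GP6), chr3:129060529-129060778 (plus strand, GP9), chr22:19723289-19723538 (plus strand, GP1BB) and chr17:44389650-44389899 (minus strand, ITGA2B).
GP6: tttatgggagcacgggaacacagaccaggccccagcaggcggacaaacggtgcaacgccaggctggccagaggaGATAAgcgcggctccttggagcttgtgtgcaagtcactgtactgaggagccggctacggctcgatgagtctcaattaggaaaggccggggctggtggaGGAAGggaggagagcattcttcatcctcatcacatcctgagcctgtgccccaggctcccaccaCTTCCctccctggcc
GP9: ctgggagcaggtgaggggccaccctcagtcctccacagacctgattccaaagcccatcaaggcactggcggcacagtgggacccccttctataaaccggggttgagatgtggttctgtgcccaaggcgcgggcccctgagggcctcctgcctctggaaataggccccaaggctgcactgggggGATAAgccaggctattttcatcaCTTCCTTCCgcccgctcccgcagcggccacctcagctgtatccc
GP1BB: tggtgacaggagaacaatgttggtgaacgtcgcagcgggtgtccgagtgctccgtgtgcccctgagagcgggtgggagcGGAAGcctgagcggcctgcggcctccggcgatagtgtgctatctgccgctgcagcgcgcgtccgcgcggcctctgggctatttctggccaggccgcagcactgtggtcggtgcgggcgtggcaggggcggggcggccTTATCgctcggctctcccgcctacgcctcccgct
ITGA2B: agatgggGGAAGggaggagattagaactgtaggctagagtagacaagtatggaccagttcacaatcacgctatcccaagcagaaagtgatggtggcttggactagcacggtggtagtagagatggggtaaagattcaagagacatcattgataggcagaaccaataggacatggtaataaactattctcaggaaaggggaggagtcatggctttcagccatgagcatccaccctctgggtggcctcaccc

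GGAAG was present in the 250 bases of all 5 matched genes, and in 65.1% of the 35116 promoter windows of the RefSeq table. GATAA was present in GP1BB, GP9, GP5 and GP6, 4 of the 5, against 20.4% of all windows. The same 4 held both motifs, against 12.1% of all windows. The GATAA match of GP1BB began 34 bases before the gene start and that of GP9 began 67 bases before it. GATAA, and with it the pair of motifs, was chosen after the sequences had been read, so the shares of both are descriptions only. Of the longer GATA motifs searched, AGATAA was present in GP6 alone (9.17% of all windows) and TGATAA in none of the 5 (6.66%). The RUNX motif TGTGGT was present in GP9 and GP1BB (in 3855 of all windows). The motifs were searched on both strands, and AGATAA and TGATAA contain GATAA. A match is a description of the letters, not of binding. The peak lists are on hg19 and no hg19 gene annotation was used, so peaks are given by position in each window and were not assigned to a promoter, exon or intron.

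Every one of the 7 loci held peaks in both lists. Each had 2 to 5 peaks in the shHMGA1 list and 3 to 5 in the control list. Density was 8.73 shHMGA1 and 9.82 control peaks per 100 kb of window. Over the full length of chromosomes 1 to 22, X and Y it was 3.64 in the shHMGA1 list and 4.11 in the control list. The windows are set on genes and the full length is not, so these densities are not like for like. The deposited peak value is the area under the significance (−log10 p) curve of the peak. As the peak caller defines it, this value grows with width and with read depth, and the lists hold no peak below 200. The baseline above which the curve was counted is not given in any source read. At the leftmost control peak of GP1BA the area per base was 0.631 with a summit −log10 p of 3.41, so the area need not hold all of the significance. Area ratios at weak peaks depend on that baseline. Median area was 1495 for the 24 shHMGA1 peaks and 1455 for the 27 control peaks, against 616 over the whole shHMGA1 list and 602 over the whole control list.

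**Figure D1:**
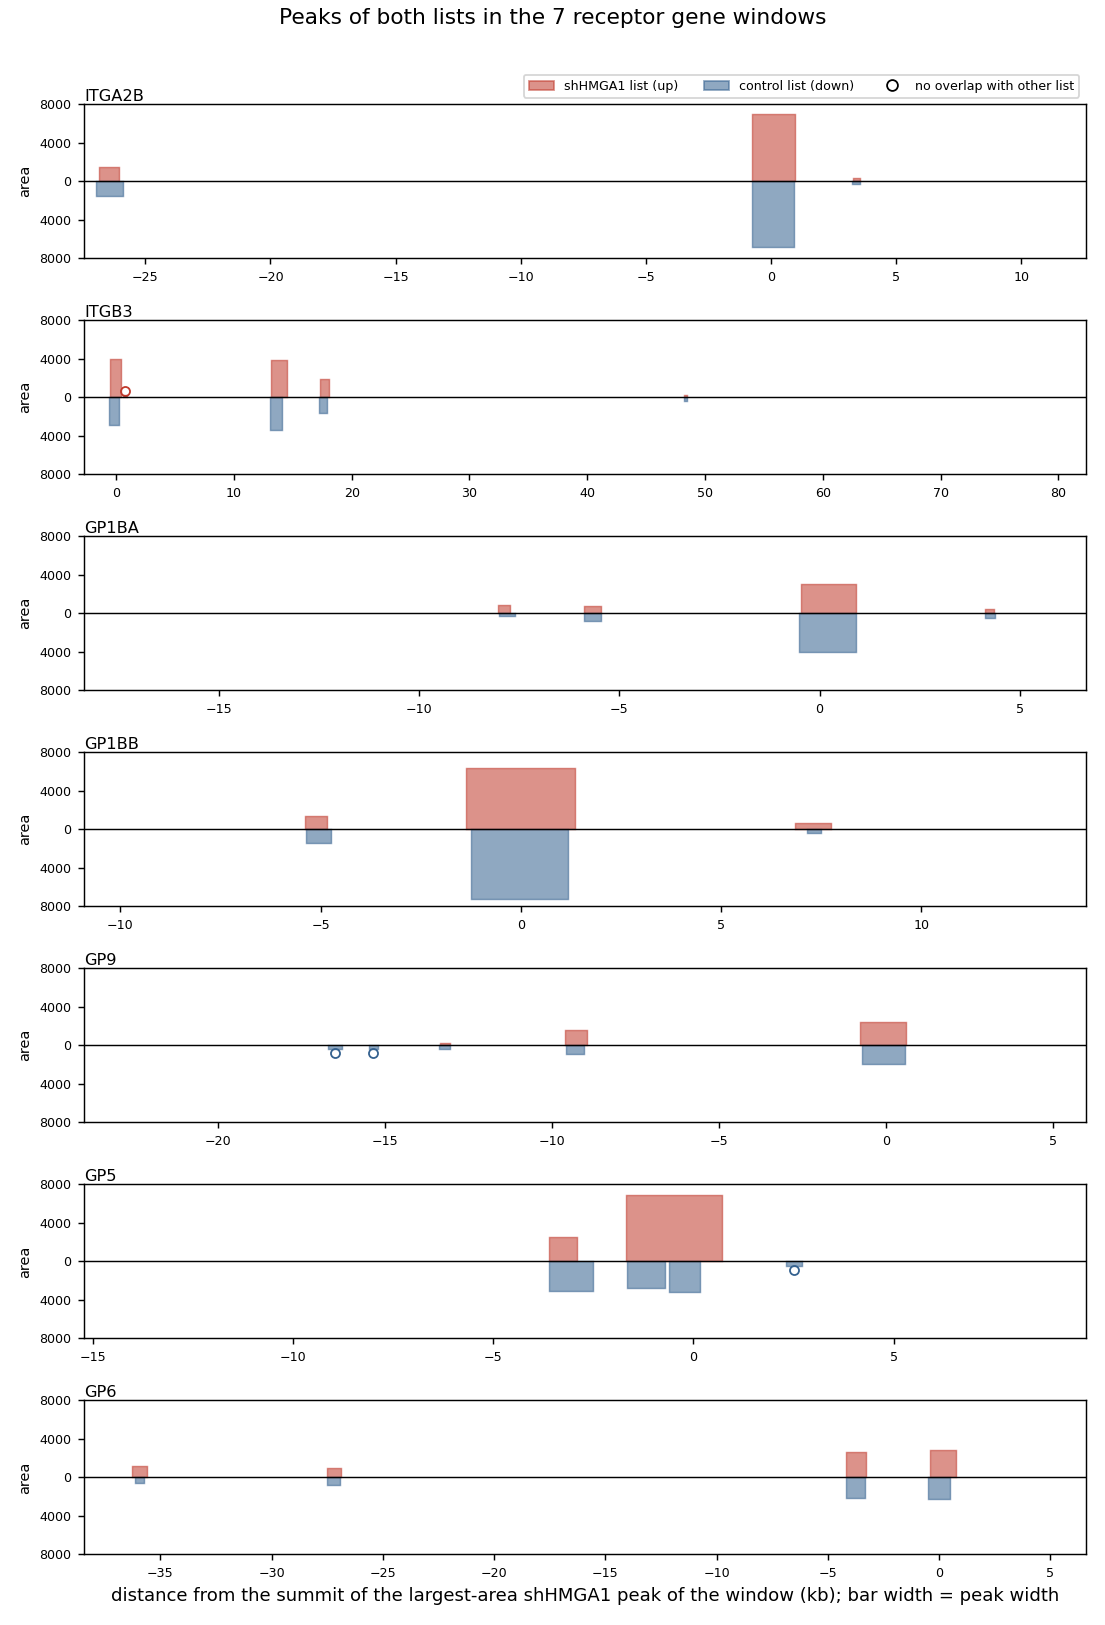
Peaks of the shHMGA1 list (red, drawn up) and the control list (blue, drawn down) in the 7 windows. The horizontal axis is the distance in kb from the summit of the largest-area shHMGA1 peak of the window, bar width is peak width, bar height is peak area, and open circles mark the 4 peaks without overlap in the other list. The tall pairs of ITGA2B and GP1BB stand at the same place in both lists, and the widest GP5 bar of the shHMGA1 list faces 2 control bars.

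At ITGA2B, which encodes the αIIb chain of the fibrinogen receptor, the lists were close. The window on chromosome 17 from 42440001 to 42480000 held 3 peaks in each list, and all were shared. The major peak ran from 42466669 to 42468384 in the shHMGA1 list (1716 bp, area 6984, summit −log10 p of 11.5) and from 42466697 to 42468336 in the control list (1640 bp, area 6811, summit −log10 p of 10.9). It carried 79.7% of the locus area in shHMGA1 and 78.3% in control. Areas this large were reached by 4.24% of the shHMGA1 list and 4.36% of the control list. A peak 25294 bp to the left of it in the shHMGA1 list was narrower in shHMGA1 (768 bp, area 1443) than in control (1073 bp, area 1574). The remaining peak, 2325 bp to the right in shHMGA1, was weak in both, with areas of 336 in shHMGA1 and 313 in control. Summed area over the locus was 8764 in shHMGA1 and 8698 in control, a ratio of 1.01.

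ITGB3 encodes the β3 chain, the partner of αIIb. Its window on chromosome 17 from 45315001 to 45400000 held 5 shHMGA1 and 4 control peaks. The leftmost peak had an area of 3975 in shHMGA1 (45317170 to 45318165) and 2898 in control (45317070 to 45317981), a ratio of 1.37. This was the largest-area peak of the locus in shHMGA1, while in control the next shared peak was the largest. That next peak had an area of 3880 over 1373 bp in shHMGA1 (45330843 to 45332215) and 3368 over 1008 bp in control (45330782 to 45331789). The shared peak after it had areas of 1876 in shHMGA1 and 1620 in control. The rightmost peak went the other way, with an area of 239 in shHMGA1 and 429 in control, although it was wider in shHMGA1 (269 bp, against 238 bp in control). All 4 shared regions of ITGB3 were thus wider in shHMGA1, and 3 of the 4 had the larger area there. The fifth shHMGA1 peak, from 45318299 to 45318596 (298 bp, area 244, summit −log10 p of 3.84), was the only shHMGA1-only peak of the 7 loci. It lay 133 bp from its shHMGA1 neighbour and 317 bp from the nearest control peak.

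GP1BA encodes the α chain of glycoprotein Ib, which holds the binding site for von Willebrand factor. In its window on chromosome 17 from 4825001 to 4850000 both lists had 4 peaks, all shared. The largest ran from 4842904 to 4844274 in shHMGA1 (1371 bp, area 3066, summit −log10 p of 8.96) and from 4842843 to 4844273 in control (1431 bp, area 4023, summit −log10 p of 10.1), so its area in shHMGA1 was 0.762 times that in control. The leftmost peak was the reverse. It had an area of 845 over 294 bp in shHMGA1 (4835338 to 4835631) and 248 over 393 bp in control (4835356 to 4835748). That ratio of 3.41 was the highest of the receptor loci and lay at the 99.7th percentile of all one-to-one regions. The control peak there was close to the lower limit of the list. The remaining pairs had area ratios of 0.937 and 0.881. All 4 regions were narrower in shHMGA1. According to RefSeq on GRCh38.p14 the protein-coding genes next to GP1BA are CHRNE and SLC25A11, and which gene each peak serves was not assigned.

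GP1BB encodes the β chain, joined to the α chain by a disulphide bond. Its window on chromosome 22 from 19700001 to 19725000 held 3 peaks in each list, all shared. The middle one was the widest and the largest of the locus, from 19709530 to 19712244 in shHMGA1 (2715 bp, area 6422, summit −log10 p of 8.74) and from 19709650 to 19712069 in control (2420 bp, area 7222, summit −log10 p of 8.79). It was therefore wider but smaller in area in shHMGA1, at 0.889 times the control value. To its left a peak had areas of 1395 in shHMGA1 and 1455 in control. The rightmost peak was 895 bp wide with an area of 638 in shHMGA1 and 361 bp wide with an area of 379 in control. Its log2 width ratio of 1.31 was the highest of the receptor loci, at the 98.4th percentile of all one-to-one regions. Each of the 3 summits lay 45 bp from its counterpart, so both distances between neighbouring summits, 5236 and 7393 bp, were the same in the lists. The protein-coding neighbours in RefSeq on GRCh38.p14 are SEPTIN5 and TBX1.

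GP9, the small subunit of the complex, had the lowest summed area of the 7 loci in both lists. Its window on chromosome 3 from 128765001 to 128795000 held 3 shHMGA1 and 5 control peaks. The largest peak ran from 128788240 to 128789620 in shHMGA1 (1381 bp, area 2403, summit −log10 p of 6.52) and from 128788318 to 128789587 in control (1270 bp, area 1912, summit −log10 p of 6.14). The peak before it had an area of 1547 in shHMGA1 (128779415 to 128780075) and 894 in control (128779443 to 128779988), a ratio of 1.73. A weak peak further left had an area of 225 in shHMGA1 and 336 in control. In control 2 more weak peaks stood beyond it, from 128772303 to 128772721 (area 365) and from 128773524 to 128773797 (area 333). These were control-only, with the nearest shHMGA1 peak 2948 and 1872 bp away. The GP9 locus thus had fewer peaks in shHMGA1 and the larger area at its 2 main peaks, and its summed area was 4174 in shHMGA1 and 3840 in control.

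GP5 encodes glycoprotein V, the member of the complex that thrombin cleaves. In its window on chromosome 3 from 194105001 to 194130000 there were 2 shHMGA1 and 4 control peaks. In shHMGA1 a single peak of 2410 bp ran from 194118526 to 194120935 (area 6938, summit −log10 p of 11.7). In control the same stretch held 2 peaks, from 194118559 to 194119495 (937 bp, area 2758) and from 194119603 to 194120382 (780 bp, area 3154), separated by 107 bp. The single peak had 1.17 times the summed area of the pair. This was the only peak of the receptor loci that overlapped more than 1 peak of the other list; over the whole lists, 3.72% of shHMGA1 peaks and 3.58% of control peaks overlapped at least 2. To the left, a shared peak was narrower and smaller in shHMGA1 (708 bp, area 2545) than in control (1101 bp, area 3080). A control-only peak of area 443 ran from 194122523 to 194122913, 1587 bp from the nearest shHMGA1 peak. Summed area was nearly equal, 9483 in shHMGA1 and 9435 in control.

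GP6, the collagen receptor gene, was the only one of the 7 loci at which every shared region was both wider and larger in area in shHMGA1. Its window on chromosome 19 from 55515001 to 55560000 held 4 peaks in each list, all shared. The largest ran from 55553026 to 55554168 in shHMGA1 (1143 bp, area 2843, summit −log10 p of 9.45) and from 55552902 to 55553924 in control (1023 bp, area 2290, summit −log10 p of 8.12). Next to it the peak from 55549221 to 55550147 in shHMGA1 had an area of 2632, and its control counterpart from 55549234 to 55550074 had 2125. The area ratios of these regions were 1.24 and 1.24. The leftmost peak differed most, with an area of 1156 over 689 bp in shHMGA1 and 544 over 443 bp in control, a ratio of 2.13 at the 97.4th percentile of all one-to-one regions. The remaining one had an area of 1011 in shHMGA1 and 789 in control. Summed area was 7643 in shHMGA1 and 5749 in control, and this ratio of 1.33 was the highest of the 7 loci.

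Over the 7 loci, summed area was larger in shHMGA1 at ITGA2B, ITGB3, GP9, GP5 and GP6 and smaller at GP1BA and GP1BB. The locus ratios ran from 0.915 at GP1BA to 1.33 at GP6, with a median of 1.01. Summed over all 7 the area was 53824 in shHMGA1 and 50655 in control, a ratio of 1.06, while the whole lists had a ratio of 0.901. Covered bases were higher in shHMGA1 at ITGB3, GP1BB and GP6 and lower at the other 4 genes, and came to 21753 bp in shHMGA1 and 20667 bp in control over all 7. That is a ratio of 1.05, beside 0.909 for the whole lists. Mean peak width over the 7 loci was 906 bp in shHMGA1 and 765 bp in control, beside 729 and 711 bp over the whole lists. The joined GP5 peak and the weak control-only peaks enter these means. A sum of areas moves with how much was called, so these ratios are descriptions of the lists.

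**Figure D2:**
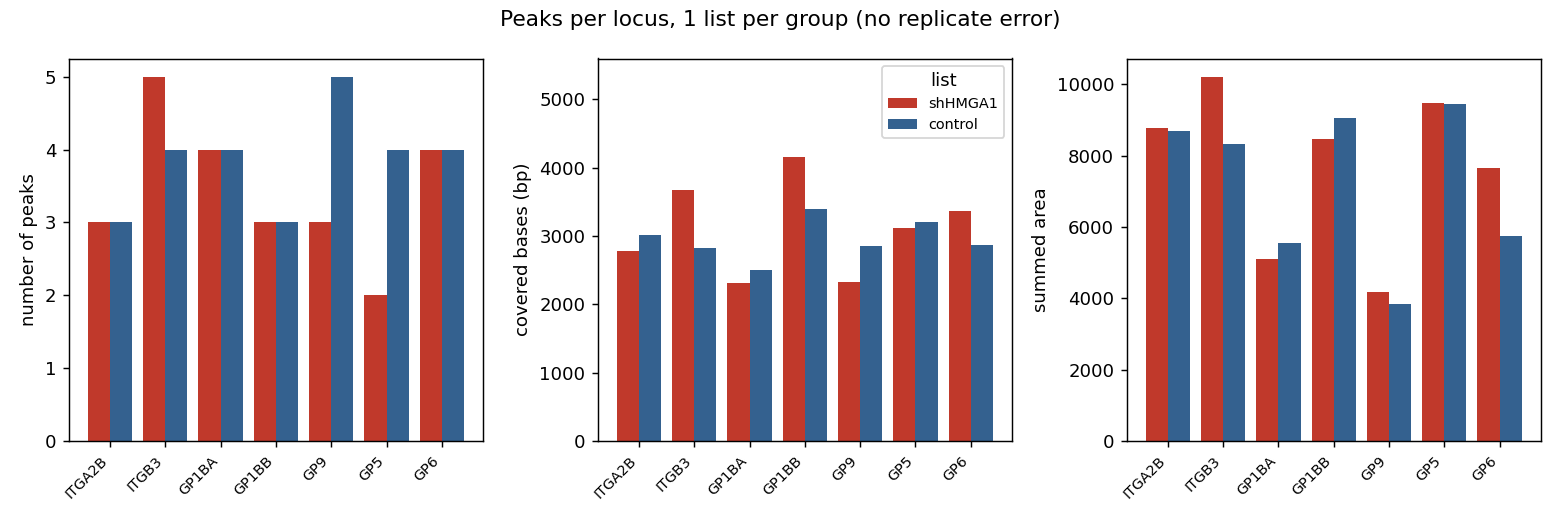
Number of peaks, covered bases and summed area at each of the 7 loci in the shHMGA1 list (red, left bar) and the control list (blue, right bar), without error bars because each group has 1 list. ITGB3 and GP6 have the larger summed area in shHMGA1 (10214 and 7643, against 8314 and 5749 in control), while ITGA2B and GP5 are nearly level.

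The number of peaks did not separate the lists in a stable way. The receptor loci had 24 shHMGA1 and 27 control peaks, a ratio of 0.889 beside 0.886 for the whole lists. Restricted to peaks at or above the joined median area of both lists, the numbers were 19 in shHMGA1 and 17 in control, a ratio of 1.12 beside 0.900 for the whole lists. Above the joined median summit significance they were 20 in shHMGA1 and 19 in control, a ratio of 1.05 beside 0.873. With both lists shortened to their 56305 most significant peaks, which sets the whole-list ratio to 1 by construction, they were 20 in shHMGA1 and 18 in control. The direction of the small difference in number at the 7 loci thus turned when weaker peaks were left out.

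Unshared peaks were few. Of the 24 shHMGA1 peaks, 1 was shHMGA1-only (4.17%, exact 95% binomial interval 0.105 to 21.1), where the background over the whole list was 14.8%. Of the 27 control peaks, 3 were control-only (11.1%, interval 2.35 to 29.2), where the background was 24.9%. These intervals cover counting error only. All 4 unshared peaks had an area below the median of their list. Below that median, 1 of 5 shHMGA1 peaks and 3 of 10 control peaks of the receptor loci were unshared, against 28.4% of all shHMGA1 and 46.7% of all control peaks of that class. At or above it, none of 19 shHMGA1 and none of 17 control peaks were unshared, against 1.26% of all shHMGA1 and 3.07% of all control peaks of that class. The exact upper limits of these shares are 17.6% for 0 of 19 and 19.5% for 0 of 17 (3 counts of the total give 15.8% and 17.6%), so no difference from those backgrounds was detectable.

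The 7 loci held 22 one-to-one regions, in which 1 peak of each list overlapped only the other. The shHMGA1 peak was the wider in 14 of 22, with a background of 44.8% over all 83581 such regions. It had the larger area in 13 of 22, with a background of 37.2%. The median log2 width ratio was 0.12 (binomial interval of the median -0.14 to 0.17), against -0.03 over all regions. The median area ratio was 1.11, against 0.911 over all regions, where the 5th and 95th percentiles were 0.439 and 1.78. With both peaks at or above the median area of their list, 15 regions remained, of which 9 had the larger area in shHMGA1, beside 35.8% of 43309 regions. With so few regions, neighbours within a locus counted apart and 1 list per group, these shares are not shown to differ from the background.

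At least 1.5 times the control area was reached in shHMGA1 by 4 of 22 regions, with a background of 9.23%. These were the leftmost regions of GP1BA and GP6, the rightmost of GP1BB and the middle one of the 3 at GP9. A difference of that size in the other direction was seen in 1 of 22, the rightmost region of ITGB3 (ratio 0.557), with a background of 20.2%. Each of these 5 regions except that of GP9 had a control area below the median of the control list. Summits lay within 100 bp of each other in 18 of 22 regions, against 83.6% of all one-to-one regions. The largest summit distance was 201 bp, within the major peak of ITGA2B.

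**Figure D3:**
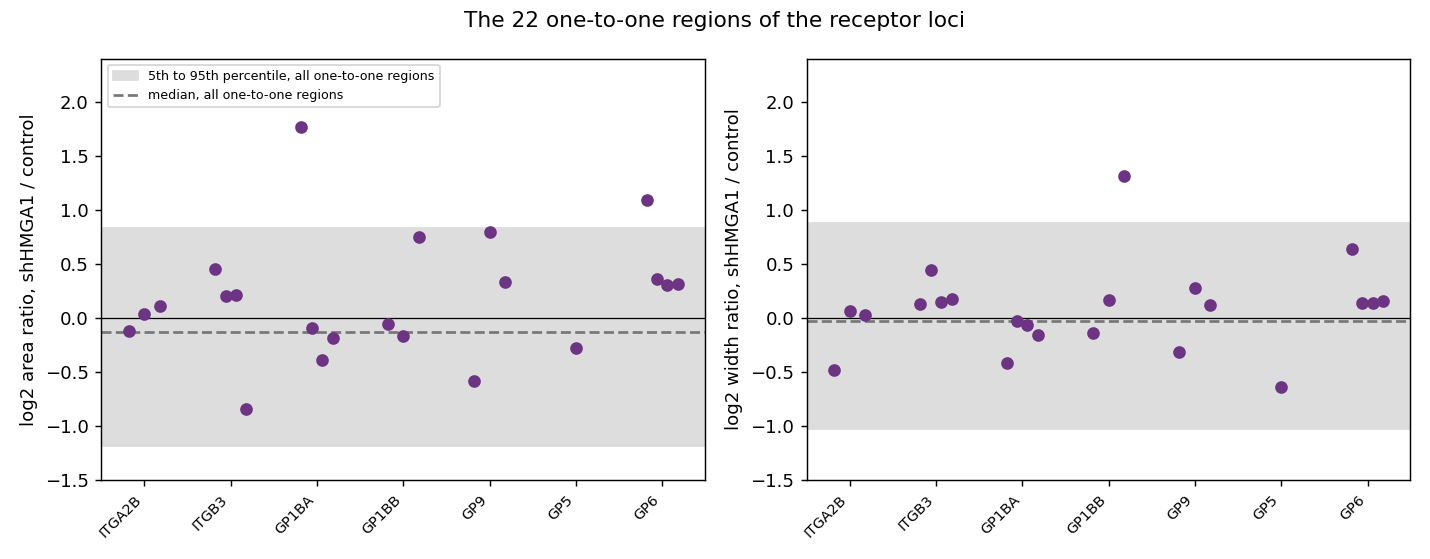
Log2 ratios of area (left) and width (right), shHMGA1 over control, for each of the 22 one-to-one regions by gene. The grey band spans the 5th to 95th percentile of all 83581 one-to-one regions and the dashed line is their median; 2 area ratios (GP1BA and GP6) and 1 width ratio (GP1BB) lie above the band and none lies below it.

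Each peak was also placed within its own list by area. Peaks among the largest 10% of the list numbered 5 of 24 in shHMGA1 (20.8%, interval 7.13 to 42.2) and 3 of 27 in control (11.1%, interval 2.35 to 29.2). These intervals overlap widely and cover counting error only. In shHMGA1 these were the major peaks of ITGA2B (4.24% of the list at or above it), GP5 (4.29%) and GP1BB (4.88%) and the leading pair of ITGB3 (9.61 and 9.87%). In control they were those of GP1BB (3.94%), ITGA2B (4.36%) and GP1BA (9.20%). The major GP5 peak entered this class through the joining of 2 control peaks that stood at 12.1 and 13.9%. The GP1BA peak stood at 12.8% in shHMGA1, and the leading pair of ITGB3 at 13.2 and 11.3% in control. At GP6 the largest peak stood at 13.9% in shHMGA1 and 16.6% in control, and that of GP9 at 16.3% in shHMGA1 and 19.6% in control.

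**Figure D4:**
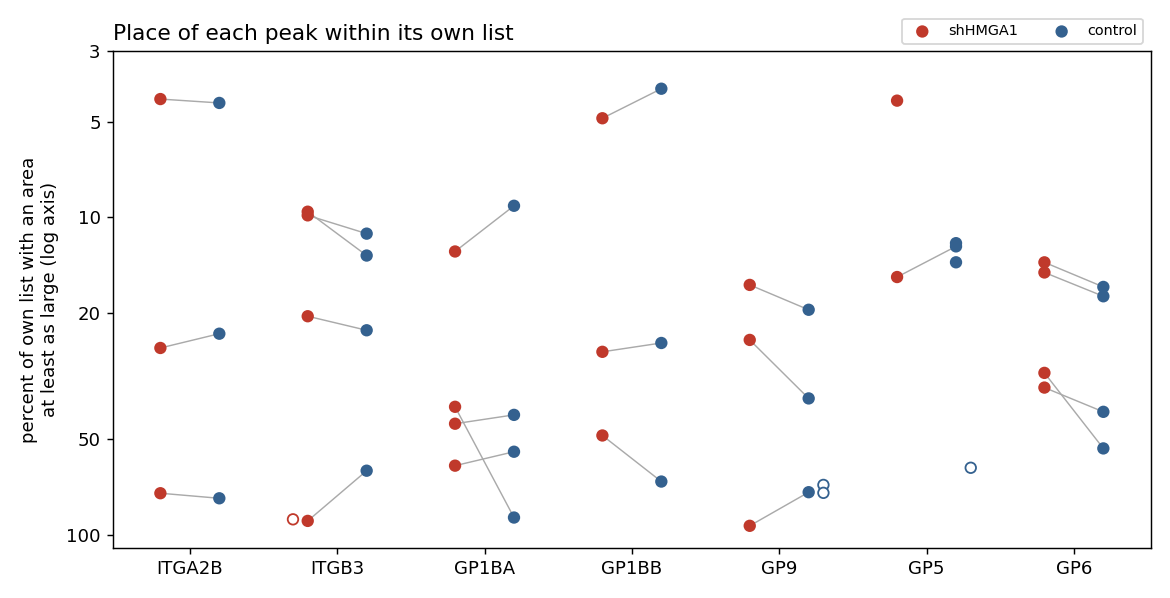
Share of the list with an area at least as large as that of each peak (percent, log axis, larger peaks at the top) for the shHMGA1 list (red, left) and the control list (blue, right) at each locus; lines join one-to-one regions and open points are unshared peaks. All 4 lines of GP6 run downward towards control, and the line of the largest GP1BA peak runs upward (12.8% in shHMGA1, 9.20% in control).

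Other receptors of the platelet surface gave a setting for these values. The list held 12 genes: the collagen and laminin receptor integrins ITGA2 and ITGA6, CLEC1B (the podoplanin receptor CLEC-2), FCER1G (the γ chain that signals for GP6), PEAR1, the ADP receptors P2RY1 and P2RY12, the thrombin receptors F2R and F2RL3, the thromboxane receptor TBXA2R, P-selectin (SELP) and the tetraspanin CD9. Windows covered the gene and about 10 kb on each side on hg19. They held 41 shHMGA1 and 38 control peaks, of which 7 in shHMGA1 (17.1%, background 14.8%) and 5 in control (13.2%, background 24.9%) were unshared. Peak density was 6.49 shHMGA1 and 6.01 control peaks per 100 kb of window. Median area was 980 in shHMGA1 and 1136 in control. Both measures lay between those of the 7 loci and the whole lists, so values above the whole lists were not particular to the 7 genes. Peaks among the largest 10% of the list numbered 8 of 41 in shHMGA1 (19.5%) and 8 of 38 in control (21.1%), so the higher share in shHMGA1 at the 7 loci was not seen here. Of the 12 loci, 10 had peaks in both lists, P2RY12 had none in either, and CLEC1B had peaks in shHMGA1 alone. Summed area was larger in shHMGA1 at 8 and smaller at 3. The median ratio over the 10 loci with peaks in both lists was 1.08, beside 1.01 for the 7 glycoprotein receptor loci. Of the 29 one-to-one regions at these other receptors, 19 were wider in shHMGA1 (65.5%, background 44.8%). The area was larger in shHMGA1 in 17 of 29 (58.6%, background 37.2%). The 7 glycoprotein receptor loci had 63.6% and 59.1%, so these shares were alike in both sets of genes.

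At ITGA6 and P2RY1 the ratio of covered bases, shHMGA1 over control, lay outside the range of the 7 loci (0.813 to 1.30). CLEC1B was named as well, since no ratio could be formed there. CLEC1B had 2 peaks in shHMGA1, from 10150764 to 10151164 (area 349) and from 10151649 to 10152227 (area 744) on chromosome 12, and none in control. ITGA6 had 3754 covered bp in shHMGA1 and 2589 in control, a ratio of 1.45. P2RY1 had 1787 bp in shHMGA1 and 2502 in control, a ratio of 0.714, since 2 weaker control peaks had no counterpart. Its main peak was among the largest of all these loci in both lists, with an area of 8355 in shHMGA1 and 8587 in control. At FCER1G, the signalling partner of GP6, all 4 peaks were shared, and summed area was 6749 in shHMGA1 and 5914 in control (ratio 1.14). As at GP6, every shared region of FCER1G was both wider and larger in area in shHMGA1. At the leftmost of them the margin was slight, 192 bp in shHMGA1 against 188 bp in control and areas of 343 against 341. FCER1G was described for its link to GP6, since its ratio of covered bases, 1.13, lay within the range of the 7 loci. The highest ratio of summed area among these other receptors was that of F2R, 1.25. Whether GP6 and FCER1G change together was not tested. Peaks overlapping 2 of the other list, as at GP5, also occurred here, in shHMGA1 at TBXA2R and in control at ITGA2 and F2RL3.

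**Figure D5:**
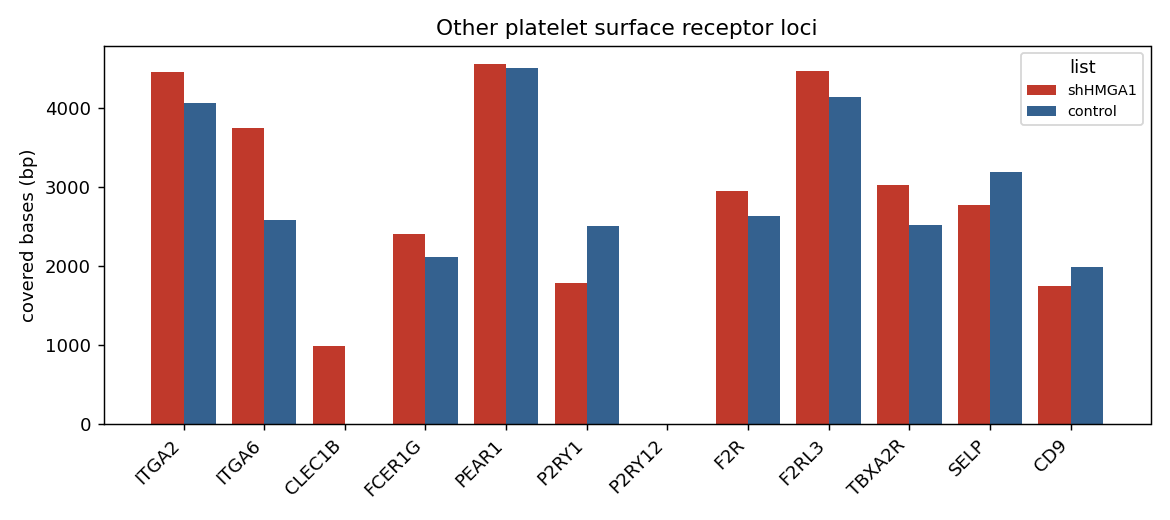
Covered bases at the 12 other platelet surface receptor loci in the shHMGA1 list (red, left bar) and the control list (blue, right bar), 1 list per group. CLEC1B has 980 bp in shHMGA1 and no control peak, and P2RY12 has no peak in either list.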

How the data were processed

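The labels give 6 samples in 2 groups of 3. The deposited data are 2 peak lists without header, each given its group from its own name. Genrich and hg19 are named in the submitters' processing notes. The caller's version and settings, the aligner, the filters and how samples entered a list are not given in any source read. The series text names SET-2 cells as well, not analysed here. The authors' deposited lists give each peak's position, a signal (the area under its significance curve), a summit −log10 p that is not adjusted, and a score, which was not used.

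Peaks overlapping a window by at least 1 bp were kept. A peak was shared where at least 1 bp overlapped the other list, and one-to-one regions were pairs with no other partner. Shares have exact Clopper-Pearson intervals at 95%, and medians have binomial order intervals. Both cover counting error only. All 7 genes, their largest peaks and every unshared peak are named. Windows of 12 other receptors were set from general knowledge of hg19. Those whose ratio of covered bases lay outside the range of the 7 genes, or that had peaks in shHMGA1 alone, were named. FCER1G was also described, as the signalling partner of GP6. The genes, lists and windows were chosen with earlier results of these data known. Alternatives were a stricter threshold, equal numbers, merging within 150 bp, larger areas, other windows and other overlap rules. Overlap and pairing were tested on simulated lists. Promoter sequences and neighbouring genes came from RefSeq (GRCh38.p14), and no coordinates were converted. Software was Python 3.11.15, numpy 2.4.6, scipy 1.17.1, pandas 2.3.3 and, for figures, matplotlib 3.10.9.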

Additional observations from a re-analysis of the deposited data

How the results depend on the processing

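Of 35 alternative values, 22 stayed within 1.5 times the reported count or within the interval of the reported median, and 13 did not. The control peaks of the 7 loci numbered 17 with larger areas only. The shHMGA1-only count, 1 as reported, was 2 with summits at or above the joined median −log10 p of 5.24, and 3 with equal numbers, larger areas (joined median 609), windows wider by 10 kb on each side, or a reciprocal overlap of 50%. At that threshold this was 2 of 20 shHMGA1 peaks (10.3% over the whole list). It was 3 of 20 with equal numbers (14.9%) and 3 of 19 with larger areas (10.5%). Wider windows gave 3 of 29 (14.8%) and reciprocal overlap 3 of 24 (29.6%). Cuts were applied to each list before pairing, so a peak became unshared where its partner fell below the cut. The 3 with larger areas were shared regions of GP1BA, GP1BB and GP6 in the full lists, with control areas of 248, 379 and 544. The shHMGA1-only count was 0 of 23 with merging (14.8% over the whole list) and 0 of 19 with windows narrower by 5 kb on each side (14.8%). With a distance of 500 bp it was 0 of 24 (12.4%). The control-only count, 3 as reported, was 0 under the stricter threshold, equal numbers and larger areas, against whole-list shares of 21.8%, 15.5% and 19.6%. The 3 reported peaks lay below these cuts, with areas of 333 to 443 and summit −log10 p of 4.22 to 4.83. With a reciprocal overlap of 50% the control-only count was 6 (22.2%, against 37.7%). The median log2 width ratio stayed between 0.12 and 0.14 under every alternative run. The peak number ratio over the 7 loci was 1.05 under the stricter threshold, 1.11 with equal numbers and 1.12 with larger areas, and 0.826 to 0.967 with other windows or merging. No paired analysis was possible because the lists carry no sample or replicate values, which also bars leaving out a replicate. Unknown read depth limits every weak peak.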

Other observations

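The 10 kb on each side of the 7 windows held 5 shHMGA1 and 3 control peaks, of which 2 in shHMGA1 and 0 in control were unshared (14.8% and 24.9% of the whole lists); these are too few to set against those shares. Beside ITGB3 there were 3 shHMGA1 peaks (summed area 5676) and 2 control peaks (4718). Beside GP1BA each list had 1 broad peak, 3141 bp wide in shHMGA1 and 3055 bp in control, larger in area (6813 in shHMGA1, 6321 in control) than any peak inside that window. Beside GP9 there was 1 shHMGA1 peak of 440 bp (area 536) and none in control. No peak of either list lay within 10 kb of the windows of ITGA2B, GP1BB, GP5 and GP6.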
